A study of Homo sapiens with 6 samples.

Results

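ATP-binding cassette (ABC) genes were followed in MDA-MB-231 cells given AF-EAE, to compare the members that export drugs and conjugates with those that move lipids or serve organelles. The members were the protein-coding genes with a symbol of ABCA to ABCG and a number. There were 45 of them among 60651 gene rows, 19885 of which are protein-coding in GENCODE 29. TAP1 and TAP2 do not carry such a symbol and were left out. By known role, 12 members were counted as drug and conjugate exporters, 18 as lipid transporters, 9 as organelle transporters, 2 as potassium channel subunits and 4 as soluble ATPases. Of the 45, 27 had enough counts to be tested and 18 did not. The cells were of MDA-MB-231, a triple-negative human breast cancer cell line of mesenchymal character. These cells, labelled wild type, were given the solvent DMSO, AF-EAE at 75 µg/ml or AF-EAE at 150 µg/ml for 24 h, and RNA was sequenced from 2 libraries per group. AF-EAE is a plant extract, made from Antenoron filiforme with ethyl acetate, and is thus a mixture, whose composition was not examined here.

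ABC proteins bind and hydrolyse ATP at a pair of nucleotide-binding domains and use it to move a substrate across a membrane. The exporters of the ABCC group, called multidrug resistance-associated proteins (MRPs), carry organic anions, among them glutathione and glucuronide conjugates of drugs and of bilirubin, while ABCB1 and ABCG2 expel many unmodified drugs. Most ABCA proteins and several ABCG proteins move sterols and phospholipids, ABCD proteins serve peroxisomes and lysosomes, and ABCE1 and the ABCF proteins have no membrane part and act on ribosomes.

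Gene counts ran from 15621103 to 17113722 per library, so that 3 counts correspond to 0.175 to 0.192 CPM (counts scaled to library size). That floor covers counting error only. The mesenchymal markers VIM and CD44 had between 9098 and 16362 counts in every library, while the luminal markers were mixed, with at most 2 counts of CDH1 and 1 of PGR, 4 of FOXA1 and 15 of ESR1, but 119 to 240 of GATA3, 456 to 623 of KRT19, 1651 to 2911 of KRT18 and 4876 to 8325 of KRT8. The leukocyte markers PTPRC and CD3E had 0. Summed over 6 leukocyte markers the level was 0.131 to 0.252 CPM with DMSO, 0.36 to 0.427 CPM at 75 µg/ml and 0.348 to 0.362 CPM at 150 µg/ml. Over 6 fibroblast and endothelial markers the sum was 9.76 to 13.5 CPM in DMSO and 14.8 to 17.2 CPM in the treated libraries. The 7 mesenchymal markers together went from 5163 to 5321 CPM in DMSO to 3832 to 3901 CPM at the lower dose and 3136 to 3186 CPM at the higher, and 6 of them fell at each dose. The 9 luminal markers went from 754 to 767 CPM to 514 to 531 CPM and 427 to 444 CPM. What part these shifts have in the results was not tested. Levels below are CPM scaled by TMM, a normalization that assumes that most genes do not change. Changes are log2 fold changes with their standard error (SE) from edgeR's quasi-likelihood test, called at an adjusted p under 0.05 over 15589 genes. In RNA from whole cultures, fewer cells of a kind and less RNA per cell cannot be told apart.

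Exporters moved in opposite directions. Of the 8 tested exporters, ABCC2, ABCC3, ABCC5, ABCC10 and ABCC11 rose at both doses, ABCC1 and ABCC4 fell at both, and ABCG2 passed the test at neither. ABCC11, with 4 and 6 counts with DMSO, passed the count filter through its treated libraries, so the filter favoured a rise. Of all tested genes, 38.6% were called at 75 µg/ml (19.2% higher and 19.4% lower) and 51.5% at 150 µg/ml (25.8% higher and 25.7% lower). ABCC2 and ABCC3 rose and ABCC1 and ABCC4 fell at both doses under each of the other scalings, filters and tools, the other fits, and with each library left out. ABCC1 (-0.91) and ABCC4 (-0.97) at 75 µg/ml would not pass if a log2 fold change of 1 or more were also asked for. The count of exporters that rose was 3 at each dose in DESeq2, 2 at 75 µg/ml without replicate 2 of that dose, 3 there without DMSO replicate 2, and 3 at 150 µg/ml without DMSO replicate 1. Both dose comparisons share the DMSO libraries, so they are not independent of each other.

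**Figure D1:**
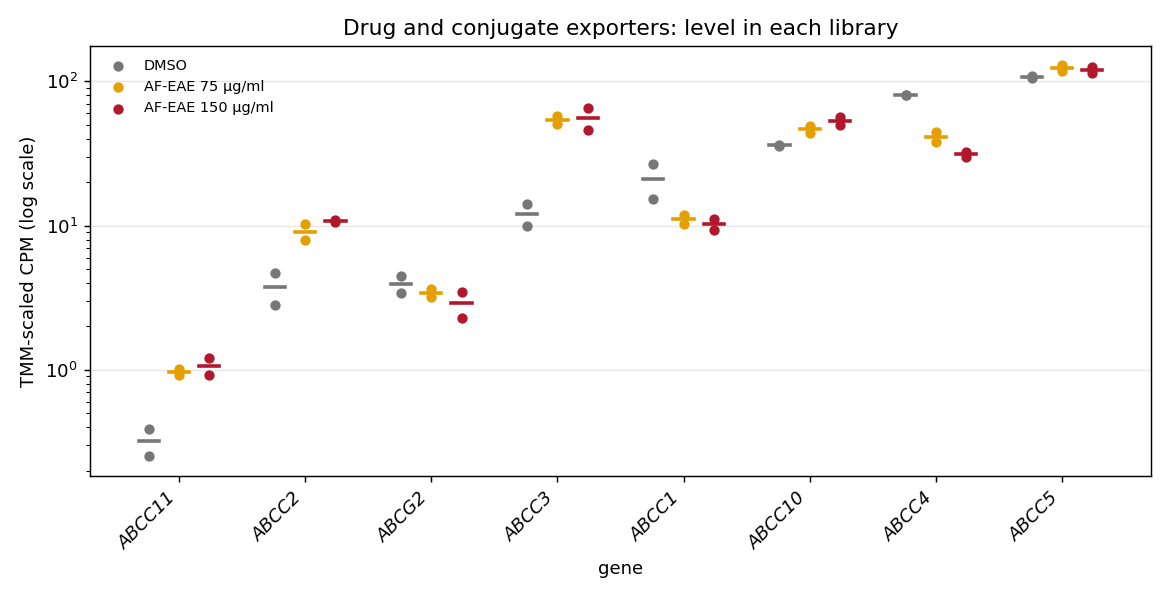
TMM-scaled CPM on a log scale for the 8 tested exporters, with a point per library and a bar at the mean of the 2 libraries of a group. ABCC2 and ABCC3 lie higher in all 4 treated libraries than in both DMSO libraries, and ABCC4 lies lower.

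ABCC3 encodes MRP3, an exporter of glucuronides, whose gene (ENSG00000108846.16) spans 50634777 to 50692252 of chromosome 17, plus strand (GRCh38). Its level was 9.89 and 14.2 CPM with DMSO, 50.7 and 57.1 CPM at 75 µg/ml and 46.2 and 65.2 CPM at 150 µg/ml. All 4 treated libraries stood far above both controls, while the treated groups overlapped each other. The log2 fold change was 2.17 at 75 µg/ml (SE 0.159, edgeR adjusted p = 1.4e-08) and 2.21 at 150 µg/ml (SE 0.159, edgeR adjusted p = 3e-09), the largest rise among the tested members at each dose. In fold terms this was 4.49 and 4.64 times the DMSO level. Between the doses the log2 fold change was 0.05 (SE 0.132, edgeR adjusted p = 0.841).

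ABCC2 encodes MRP2, the exporter of conjugates on the apical membrane of liver cells, whose gene (ENSG00000023839.12) spans 99782640 to 99852594 of chromosome 10, plus strand. It was lower than ABCC3, at 2.83 and 4.71 CPM with DMSO, 7.93 and 10.2 CPM at 75 µg/ml and 10.6 and 10.9 CPM at 150 µg/ml. No treated library overlapped the controls. The log2 fold change was 1.27 (SE 0.216, edgeR adjusted p = 0.00016) at 75 µg/ml and 1.52 (SE 0.212, edgeR adjusted p = 1.1e-05) at 150 µg/ml. The step between doses was 0.25 (SE 0.188, edgeR adjusted p = 0.4).

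ABCC4 encodes MRP4, an exporter of organic anions, cyclic nucleotides and prostanoids, whose gene (ENSG00000125257.16) spans 95019829 to 95301475 of chromosome 13, minus strand. It went the other way, from 80.8 and 80.7 CPM in DMSO to 38.2 and 44.1 CPM at 75 µg/ml and 29.8 and 32.5 CPM at 150 µg/ml. The 3 groups did not overlap, and the higher dose was the lowest. The log2 fold change was -0.97 (SE 0.081, edgeR adjusted p = 6.5e-08) at 75 µg/ml and -1.37 (SE 0.0833, edgeR adjusted p = 3.5e-10) at 150 µg/ml. It also fell between the doses, by 0.40 on the log2 scale (SE 0.087, edgeR adjusted p = 0.00307). That step did not pass without replicate 2 at 75 µg/ml (-0.29, edgeR adjusted p = 0.0648) or without replicate 1 at 150 µg/ml (-0.33, edgeR adjusted p = 0.0661).

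ABCC1 (ENSG00000103222.20, chromosome 16, 15949577 to 16143074, plus strand) encodes MRP1, an exporter of glutathione conjugates. Its level was 26.5 and 15.2 CPM with DMSO, 11.9 and 10.3 CPM at 75 µg/ml and 9.29 and 11.2 CPM at 150 µg/ml. The treated libraries lay below both controls, but the controls differed from each other more than the treated libraries did. The log2 fold change was -0.91 (SE 0.195, edgeR adjusted p = 0.00124) and -1.03 (SE 0.196, edgeR adjusted p = 0.00029) at the lower and higher dose. Without DMSO replicate 1 it was -0.46 and -0.57, and without DMSO replicate 2 it was -1.26 and -1.37, and all of these passed the test. Of the 5 protein-coding genes within 200000 bp of ABCC1, 4 had at most 20 counts in every library, against 40% of all protein-coding rows. The fifth, CEP20, had 140 and 132 counts with DMSO, 120 and 295 at the lower dose and 278 and 119 at the higher, so replicates of both doses differed there too. The part of read placement in this region in the fall of ABCC1 was not tested.

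The other exporters moved less or were scarce. ABCC10 (MRP7, a drug exporter) stood at 36.2 and 35.6 CPM with DMSO, 43.5 and 49.3 CPM at 75 µg/ml and 49.9 and 56.7 CPM at 150 µg/ml. ABCC5 (MRP5, which exports cyclic GMP and nucleotide analogues) had the highest CPM of the exporters, with 108 and 106 CPM with DMSO, 117 and 129 CPM at 75 µg/ml and 115 and 125 CPM at 150 µg/ml. Neither treated group of ABCC10 or ABCC5 overlapped DMSO, and log2 fold changes were 0.37 (SE 0.0892) and 0.57 (SE 0.0881) for ABCC10 and 0.20 (SE 0.0622) and 0.16 (SE 0.0622) for ABCC5. The ABCC10 call at 75 µg/ml was lost without replicate 2 of that dose (0.28, edgeR adjusted p = 0.0637). The ABCC5 call at 150 µg/ml (edgeR adjusted p = 0.0382) was lost under DESeq2 size factors (0.14, edgeR adjusted p = 0.0663). The same call was lost with no filter on low counts (0.15, edgeR adjusted p = 0.0653) and under DESeq2 (0.14, adjusted p = 0.136). It was also lost without either DMSO library or replicate 2 at 150 µg/ml (0.10 to 0.18). At 75 µg/ml it was lost under DESeq2 (0.18, adjusted p = 0.0548) and without DMSO replicate 2 (0.18) or replicate 2 of that dose (0.13). ABCC11 (MRP8, an organic anion exporter) rested on 4 and 6 counts with DMSO, on 15 and 17 at the lower dose and on 20 and 16 at the higher. Its log2 fold changes of 1.57 (SE 0.551, edgeR adjusted p = 0.032) and 1.71 (SE 0.542, edgeR adjusted p = 0.0139) did not pass in DESeq2 (adjusted p = 0.123 and 0.071), nor at 75 µg/ml with any 1 of the 6 libraries left out, nor at 150 µg/ml without DMSO replicate 1 or replicate 1 of that dose. ABCG2, the breast cancer resistance protein, was at 3.4 and 4.45 CPM with DMSO, 3.66 and 3.18 CPM at 75 µg/ml and 2.29 and 3.48 CPM at 150 µg/ml. Its groups overlapped, with log2 fold changes of -0.20 (SE 0.271) and -0.44 (SE 0.275). ABCB1, the gene of P-glycoprotein, had 0 to 2 counts per library, and ABCC6 had 0 to 6. ABCB5 and ABCC12 had 0 in all libraries, which allows up to 0.175 to 0.192 CPM in each.

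Levels of different genes are compared per length, as CPM per kilobase of merged exons. Summed over the 12 exporters, this level was 28.9 and 28.1 with DMSO, 28.8 and 31.9 at the lower dose and 27.7 and 32.2 at the higher. The sums overlapped between all groups, while the genes that made them up changed places. ABCC4 held 32.8% ± 0.663 of the sum in DMSO, 15.7% ± 0.508 at 75 µg/ml and 12.1% ± 0.532 at 150 µg/ml (SD, n = 2 each). ABCC3 held 4.41% ± 1.2, 18.5% ± 0.254 and 19.2% ± 2.61 (SD, n = 2 each), so that its share passed that of ABCC4 in each treated library. ABCC10 went from 15.6% ± 0.153 to 18.9% ± 0.328 and 22.1% ± 0.371, and ABCC2 from 1.7% ± 0.63 to 3.8% ± 0.404 and 4.61% ± 0.409 (SD, n = 2 each). ABCC5 held a share close to that of ABCC4 in DMSO and the largest share at both doses, with 32.9% ± 0.147, 35.4% ± 0.235 and 35% ± 1.67 (SD, n = 2 each). ABCC1 went from 9.64% ± 3.49 to 4.86% ± 0.832 and 4.51% ± 0.109 (SD, n = 2 each). The shares depend on the merged exon lengths used, and they were not tested.

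**Figure D2:**
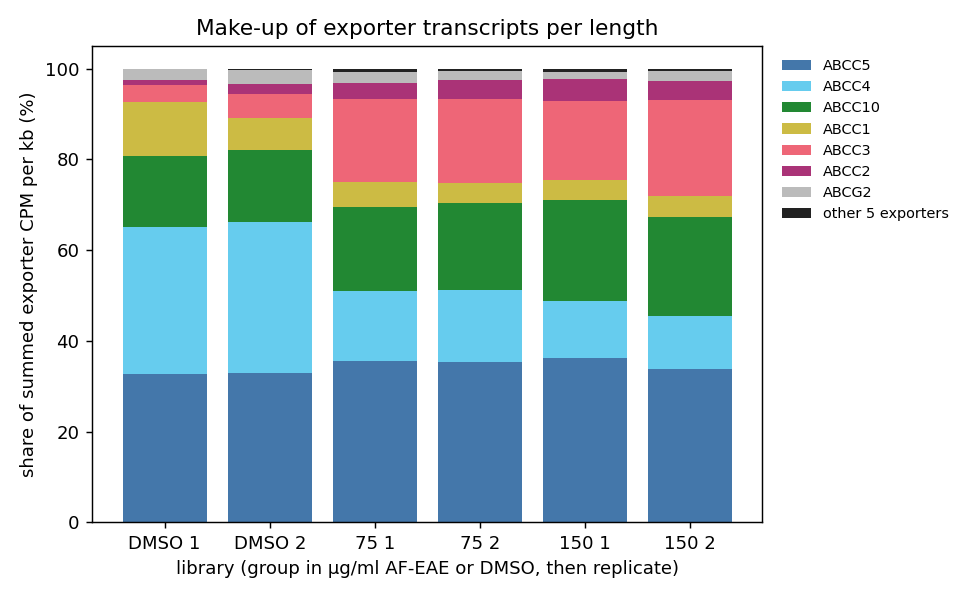
Share of each exporter in the summed exporter level (CPM per kilobase of merged exons, in %) for each of the 6 libraries. The ABCC4 segment shrinks from 32.8% to 12.1% and the ABCC3 segment grows from 4.41% to 19.2% between the DMSO and the 150 µg/ml means.

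Sequence just before the transcription start was read from RefSeq windows (GRCh38.p14), which matched 35 of the 45 members, with ABCC1 and ABCC3 among those without an entry. In 29 of the 35 windows the bases after the start matched a GENCODE 29 transcript of the gene. The 250 bases before the start are shown for ABCC2, which rose, for ABCC4, which fell, and for ABCA3, a lipid transporter that rose. Letters in capitals mark a match, on either strand, to TGACNNNGC (the core antioxidant response element bound by NRF2 with small MAF proteins) or to GCGTG (the core xenobiotic response element bound by AHR with ARNT). Each is written 5′ to 3′ on the strand of its gene.
ABCC2, chr10:99782390-99782639, plus strand: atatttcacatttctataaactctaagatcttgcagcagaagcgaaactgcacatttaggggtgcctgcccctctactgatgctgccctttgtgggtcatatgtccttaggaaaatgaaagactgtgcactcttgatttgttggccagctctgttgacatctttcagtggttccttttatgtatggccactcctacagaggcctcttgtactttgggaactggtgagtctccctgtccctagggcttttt
ABCC4, chr13:95301452-95301701, minus strand: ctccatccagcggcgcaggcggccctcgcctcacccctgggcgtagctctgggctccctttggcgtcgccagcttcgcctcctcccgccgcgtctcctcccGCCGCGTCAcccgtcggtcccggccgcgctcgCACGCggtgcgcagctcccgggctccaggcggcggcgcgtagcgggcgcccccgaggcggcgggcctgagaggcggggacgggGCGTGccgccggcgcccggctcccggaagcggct
ABCA3, chr16:2340729-2340978, minus strand: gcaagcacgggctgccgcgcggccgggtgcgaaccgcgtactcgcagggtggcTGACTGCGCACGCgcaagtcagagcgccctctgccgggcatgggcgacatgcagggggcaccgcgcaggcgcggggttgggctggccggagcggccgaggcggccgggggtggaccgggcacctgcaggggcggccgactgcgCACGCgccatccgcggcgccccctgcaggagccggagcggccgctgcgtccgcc
The window of ABCC2 held neither set of letters. That of ABCC4 held 1 match to TGACNNNGC and 2 to GCGTG, and that of ABCA3 also 1 and 2, with a match to each running into the other. The windows differed in base composition, with 45.6% G and C in ABCC2, 80.4% in ABCC4 and 79.2% in ABCA3.

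Across the 35 windows, TGACNNNGC was found in 6 (ABCC4, ABCA2, ABCA3, ABCB6, ABCD4 and ABCF1), against 10.9% of all 35116 windows in the RefSeq table. Of these members, ABCA3 and ABCD4 rose at both doses, ABCC4 fell at both, and ABCA2 fell at 150 µg/ml. GCGTG was found in 12 of the 35, against 32.2% of all windows. TGATGNAA, a core of the ATF4 and CEBP composite element, was found in 1 (ABCA13, which was not tested) against 3.14%. The E-box CACGTG was found in 4 (ABCA1, ABCA9, ABCB6 and ABCF1) against 6.34%. The DR4 element, the spaced repeat bound by LXR with RXR, was found in 0 against 0.0142%. TGACNNNGC and CACGTG shared letters in ABCB6. These are matches of letters in a short window and say nothing of binding, or of sites outside it. For each member the first window listed was taken, while the shares of all windows count every window of full length.

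Of the 18 lipid transporters 7 were tested, and among these more rose than fell. At 75 µg/ml 4 of them rose (ABCA3, ABCA5, ABCA7 and ABCG4) and ABCA1 fell, and at 150 µg/ml the same 4 and ABCA10 rose and ABCA2 fell. As shares of the tested members, 57.1% were higher and 14.3% lower with the lower dose, then 71.4% and 14.3% with the higher. Among all tested genes these shares were 19.2% and 19.4%, then 25.8% and 25.7%. Since 7 members were tested, with few counts for ABCG4 and ABCA10, no trait of the class is read from this. The median log2 fold change of the tested members was 0.53 and 0.75, against 0.015 and 0.029 over all tested genes. Shares and medians include ABCA10, which passed the count filter through its treated libraries, so the filter favoured a rise there.

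ABCA7, a phospholipid transporter related to ABCA1, was at 14.5 and 14.1 CPM with DMSO, 20.02 and 25.4 CPM at 75 µg/ml and 27.0 and 30.3 CPM at 150 µg/ml. The 3 groups did not overlap, and the log2 fold change was 0.67 (SE 0.127, edgeR adjusted p = 0.00046) and 1.00 (SE 0.124, edgeR adjusted p = 2.8e-06). ABCA5, an endolysosomal lipid transporter, was at 21.0 and 19.6 CPM with DMSO, 26.0 and 26.5 CPM at 75 µg/ml and 35.2 and 32.8 CPM at 150 µg/ml. It too stepped up without overlap, with log2 fold changes of 0.37 (SE 0.0994, edgeR adjusted p = 0.00633) and 0.75 (SE 0.0972, edgeR adjusted p = 5e-06). ABCA3, the phospholipid transporter of lamellar bodies in lung, was at 35.5 and 33.8 CPM with DMSO, 49.0 and 50.7 CPM at 75 µg/ml and 44.6 and 46.4 CPM at 150 µg/ml. Here the lower dose stood highest, with log2 fold changes of 0.53 (SE 0.0787, edgeR adjusted p = 4.4e-05) and 0.39 (SE 0.0791, edgeR adjusted p = 0.00045).

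ABCA2 and ABCA1 did not follow the dose evenly. ABCA2, a lipid transporter of endolysosomes, was at 65.6 and 68.9 CPM with DMSO, 61.2 and 75.3 CPM at 75 µg/ml and 42.6 and 48.2 CPM at 150 µg/ml. The lower dose overlapped DMSO (log2 fold change 0.02, SE 0.0894), while the higher dose lay below both groups (-0.57 against DMSO, SE 0.0923, edgeR adjusted p = 6e-05). ABCA1, which loads cholesterol and phospholipid onto apolipoprotein A-I, was at 4.72 and 7.45 CPM with DMSO, 2.44 and 4.26 CPM at 75 µg/ml and 6.7 and 5.8 CPM at 150 µg/ml. At 75 µg/ml it fell, with a log2 fold change of -0.86 (SE 0.273, edgeR adjusted p = 0.0194), and was at 0.04 (SE 0.254) at 150 µg/ml. The fall at 75 µg/ml did not pass without DMSO replicate 2 (-0.49, edgeR adjusted p = 0.232) or without replicate 1 at 75 µg/ml (-0.52, edgeR adjusted p = 0.176).

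ABCG4 and ABCA10 were called from few counts. ABCG4, a close relative of the sterol transporter ABCG1, was at 0.882 and 0.719 CPM with DMSO, 1.65 and 2.1 CPM at 75 µg/ml and 2.41 and 2.09 CPM at 150 µg/ml. Its log2 fold changes were 1.22 (SE 0.388, edgeR adjusted p = 0.0193) and 1.48 (SE 0.379, edgeR adjusted p = 0.00334). The first did not pass in DESeq2 (adjusted p = 0.0742) or without replicate 2 of DMSO (1.08) or of 75 µg/ml (1.03). ABCA10 had 4 and 6 counts with DMSO, 10 and 21 at the lower dose and 13 and 21 at the higher. It thus passed the count filter through its treated libraries, so the filter favoured a rise. ABCA10 also shares 3.78% of its exonic length with ABCA5, and the part of ABCA5 reads in its counts was not tested. Its log2 fold change of 1.62 at 150 µg/ml (SE 0.595, edgeR adjusted p = 0.0302) did not pass in DESeq2 (adjusted p = 0.107) or without either DMSO library or replicate 2 at 150 µg/ml (1.26 to 1.96), and 1.52 at 75 µg/ml did not pass in edgeR (adjusted p = 0.055). The latter did pass in edgeR under total counts (adjusted p = 0.0366), with no filter on low counts (0.0426), with a replicate block (0.0476) and without replicate 1 at 75 µg/ml (0.0396). The 11 lipid members that were not tested had at most 10 counts in any library, and 4 of them (ABCA8, ABCA9, ABCB11 and ABCG8) had 0 in all. ABCA12, the ceramide lipid transporter of skin, had 10 and 6 counts with DMSO, 3 and 3 at the lower dose and 1 and 1 at the higher. With no filter on low counts it passed at 150 µg/ml (log2 fold change -2.97, edgeR adjusted p = 0.0384), a call that rests on those few reads. ABCG1 had 3 counts in 1 DMSO library, 1 in 1 library at 150 µg/ml and 0 elsewhere.

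**Figure D3:**
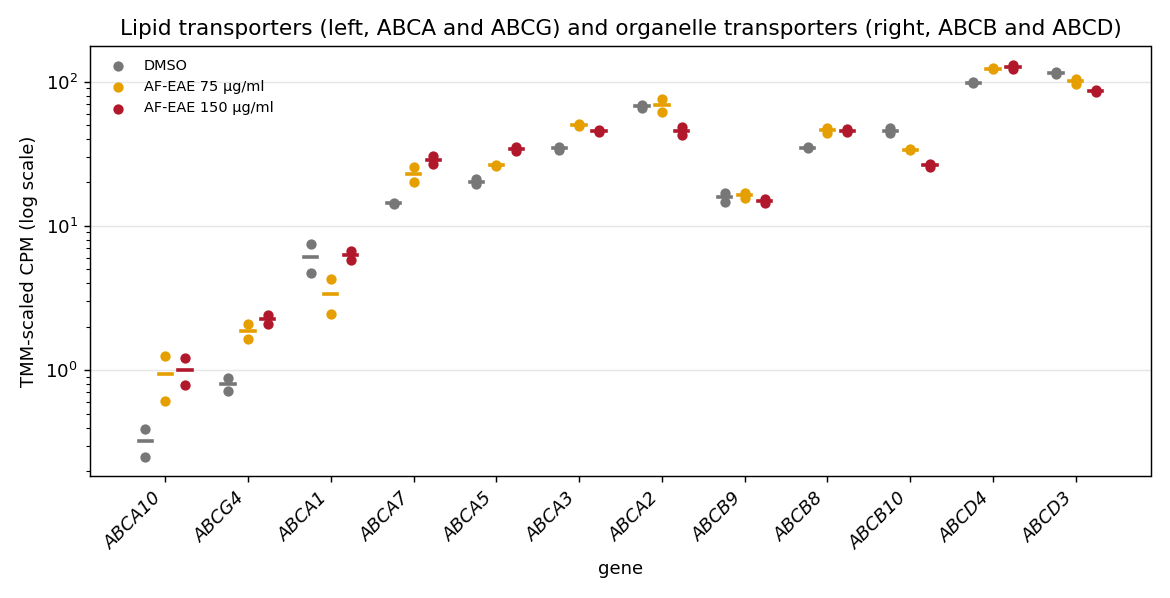
TMM-scaled CPM on a log scale for the 7 tested lipid transporters and for tested organelle transporters, with a point per library and a bar at the mean of the 2 libraries of a group. ABCA7 and ABCA5 step up with dose, and ABCB10 and ABCD3 step down.

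Organelle transporters were split. Of 9 members, 7 were tested, and at each dose 3 rose, ABCB8 and ABCD4 among them, while ABCB10 and ABCD3 fell and ABCB9 was among those that did not pass. With 7 members tested, 3 higher and 2 lower (42.9% and 28.6%) stand beside 19.2% and 19.4% of all tested genes at the lower dose and 25.8% and 25.7% at the higher, so nothing particular to these members is read from the split. In peroxisomes, ABCD3, the abundant membrane protein PMP70 that imports branched and dicarboxylic acyl-CoA, was at 113 and 116 CPM with DMSO, 104 and 96.7 CPM at 75 µg/ml and 84.7 and 87.5 CPM at 150 µg/ml. It stood lower in all 4 treated libraries than in both controls, and the higher dose was the lowest. The log2 fold change was -0.19 (SE 0.0589, edgeR adjusted p = 0.0171) and -0.41 (SE 0.0594, edgeR adjusted p = 1.8e-05). Under total counts in place of TMM, ABCD3 at 75 µg/ml was at -0.06 (edgeR adjusted p = 0.431), and its call there was also lost without DMSO replicate 2 (-0.17) or replicate 2 at 75 µg/ml (-0.14). ABCD2, another peroxisomal member, had 0 to 7 counts.

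In mitochondria, ABCB10, which is linked to haem synthesis, was at 47.3 and 43.9 CPM with DMSO, 34.1 and 33.4 CPM at 75 µg/ml and 25.8 and 27.0 CPM at 150 µg/ml. It stepped down without overlap, with log2 fold changes of -0.43 (SE 0.0842, edgeR adjusted p = 0.00054) and -0.79 (SE 0.0861, edgeR adjusted p = 6e-07). ABCB8 was at 35.1 and 34.7 CPM with DMSO, 44.1 and 47.9 CPM at 75 µg/ml and 44.7 and 46.7 CPM at 150 µg/ml, with overlapping levels at the 2 doses (0.40, SE 0.0811, and 0.39, SE 0.081). In lysosomes, ABCD4, which exports cobalamin, was at 98.7 and 97.4 CPM with DMSO, 122 and 123 CPM at 75 µg/ml and 121 and 129 CPM at 150 µg/ml. Both treated groups stood above DMSO (0.32, SE 0.0566, and 0.35, SE 0.0565). The peptide transporter ABCB9 stayed between 14.4 and 16.9 CPM, with overlapping groups at both doses. ABCB6, a porphyrin transporter, had 2 to 10 counts, but 54.7% of its exonic length overlaps another annotated gene, where reads can be counted for neither, so its level is uncertain.

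The remaining members are a channel subunit and soluble ATPases. ABCC9, which forms SUR2 of ATP-sensitive potassium channels, was at 0.882 and 1.44 CPM with DMSO, 1.16 and 1.44 CPM at 75 µg/ml and 2.47 and 1.22 CPM at 150 µg/ml, with overlapping groups, and its relative ABCC8 had 0 counts in all libraries. ABCE1, the factor that splits ribosomes after termination, had the highest level per length of the tested members in DMSO, 33.8 CPM per kilobase. With AF-EAE, ABCF3 stood above it, with 24.4 against 21.7 CPM per kilobase at 75 µg/ml and 25.2 against 19.6 at 150 µg/ml. Of the exonic length of ABCE1, 11.9% overlaps genes on the other strand. The CPM of ABCE1 was 206 and 217 with DMSO, 140.1 and 132 at the lower dose and 126 and 120.1 at the higher. It fell at both doses without overlap, by 0.64 (SE 0.0546, edgeR adjusted p = 8.7e-08) and 0.78 (SE 0.0549, edgeR adjusted p = 2.4e-09) on the log2 scale. ABCF3 was at 124 and 111 CPM with DMSO, 123 and 132 CPM at 75 µg/ml and 132 and 131 CPM at 150 µg/ml. Its rise at 150 µg/ml (0.17, SE 0.0616, edgeR adjusted p = 0.0332) did not pass under DESeq2 size factors (edgeR adjusted p = 0.0568), with no filter on low counts (edgeR adjusted p = 0.0503), in DESeq2 (adjusted p = 0.116), or without DMSO replicate 2 (0.08) or either library at 150 µg/ml (0.16 and 0.17). ABCF3 did not pass at 75 µg/ml (0.12, edgeR adjusted p = 0.15), but it did under total counts (0.24, edgeR adjusted p = 0.00417) and without DMSO replicate 1 (0.20, edgeR adjusted p = 0.0331). ABCF2, with 45.8% of its exonic length shared with a read-through gene, was between 18.2 and 23.7 CPM with overlapping groups. ABCF1 had 2 and 9 counts with DMSO, 5 and 12 at the lower dose and 7 and 10 at the higher. All 14 other protein-coding genes within 200000 bp of it had at most 20 counts in every library, among them the beta-tubulin gene TUBB and HLA-E, against 40% of all protein-coding rows. The ABCF1 row is therefore given as counts and is not read as its level.

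**Figure D4:**
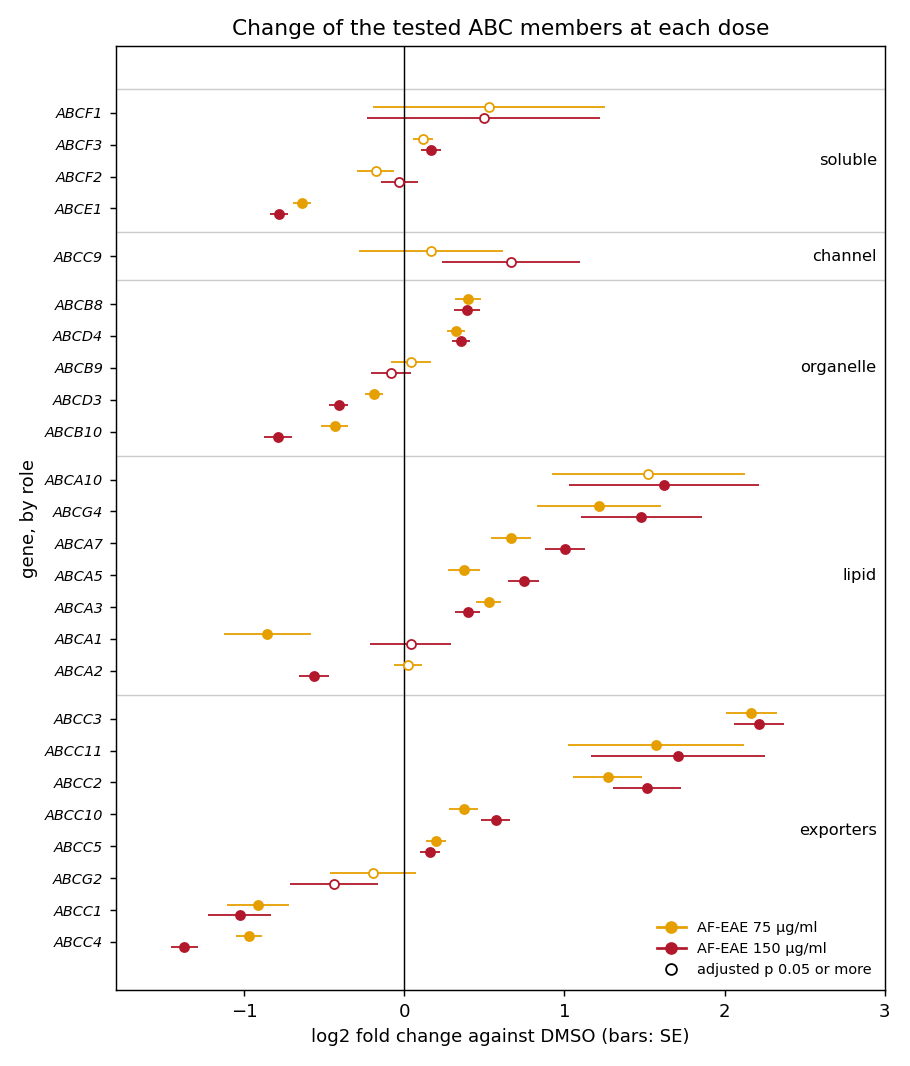
Log2 fold change against DMSO with its SE for tested members, in order of change within each role, at both doses. Open points have an adjusted p of 0.05 or more. ABCC3 lies farthest right at 2.17 and 2.21, and ABCC4 farthest left at -0.97 and -1.37.

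Set side by side, both classes held members that rose and members that fell. At 75 µg/ml 5 of the 8 tested exporters rose and 2 fell, while of the 14 tested lipid and organelle members 7 rose and 3 fell. At 150 µg/ml the counts were 5 and 2 for the exporters and 8 and 3 for the other class. Over all tested genes, 19.2% rose and 19.4% fell at 75 µg/ml, and 25.8% rose and 25.7% fell at 150 µg/ml. The median absolute log2 fold change at 150 µg/ml was 1.2 for the exporters and 0.49 for the lipid and organelle members, against 0.38 over all tested genes. At 75 µg/ml it was 0.94, 0.42 and 0.28. These medians are a description with no test of the difference, and the exporters ABCC1 and ABCC11 that enter them carry the limits given above. Over all 27 tested members 12 rose and 6 fell at 75 µg/ml (44.4% and 22.2%), and 14 rose and 6 fell at 150 µg/ml (51.9% and 22.2%). The shares that fell were near those of all tested genes. The rises include ABCC11 at both doses and ABCA10 at 150 µg/ml, which passed the count filter through their treated libraries. A log2 fold change of 1 or more in size, with the call, was reached at 150 µg/ml upward by 7 of the 27, among them ABCC2, ABCC3, ABCC11, ABCA7, ABCA10 and ABCG4, where 7.73% of all tested genes did so. Downward it was reached by ABCC1 and ABCC4, against 3.99%. At 75 µg/ml 4 members reached it upward (ABCC2, ABCC3, ABCC11 and ABCG4) and 0 downward, against 4.75% and 1.26% of all tested genes. Of the members named upward, ABCC11, ABCA10 and ABCG4 rest on few counts, and ABCA7 was at 1.00 at 150 µg/ml. The calls of ABCC11 and ABCA10 at 150 µg/ml were lost in DESeq2 (adjusted p = 0.071 and 0.107), so the upward counts are less firm than they look.

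Between 75 and 150 µg/ml, 4 members rose and 4 fell, where 22% of all tested genes were called, 9.51% higher and 12.5% lower. No member changed by 1 or more on the log2 scale with a call (0 of 27), against 1.45% of all tested genes (0.834% higher and 0.616% lower). Among those that rose were ABCA1 (0.90, SE 0.27), ABCA5 (0.37, SE 0.094) and ABCA7 (0.34, SE 0.117). Those that fell were ABCA2 (-0.59, SE 0.0918), ABCC4 (-0.40, SE 0.0871), ABCB10 (-0.36, SE 0.0878) and ABCD3 (-0.22, SE 0.0597). Of the 8 tested exporters ABCC4 passed and 7 did not. The ABCA7 step (edgeR adjusted p = 0.0486) did not pass in DESeq2 (adjusted p = 0.108), and the ABCD3 step did not pass under total counts (-0.16, edgeR adjusted p = 0.0674). These counts rest on single libraries, since without replicate 1 at 150 µg/ml 0 rose and 1 fell, without replicate 2 at 150 µg/ml 2 rose and 4 fell, and without replicate 1 at 75 µg/ml 1 rose and 2 fell.

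Genes around the exporters were counted from lists that were chosen with earlier results of these data known. The counts are thus a description and no independent support. The shares of all tested genes that rose and fell were 19.2% and 19.4% at the lower dose and 25.8% and 25.7% at the higher. Of 15 tested genes of the NRF2 response and of glutathione supply, 12 rose and 0 fell at 75 µg/ml, and 13 rose and 0 fell at 150 µg/ml (median log2 fold change 0.64 and 1.00). They include SLC7A11, the cystine transporter gene that feeds glutathione synthesis, and HMOX1, haem oxygenase 1, which degrades haem, with log2 fold changes of 1.91 (SE 0.046) and 1.86 (SE 0.0798) at 150 µg/ml. Among 17 tested conjugating enzymes, 9 rose and 0 fell at 75 µg/ml and 10 rose and 1 fell at 150 µg/ml. TPMT, which methylates thiopurines, and MGST1, a microsomal glutathione transferase, had log2 fold changes of 0.89 (SE 0.083) and 0.49 (SE 0.0513) at 150 µg/ml. Of the glucuronosyltransferase genes in the list, UGT1A1, UGT1A6, UGT1A9, UGT1A10 and UGT2B15 had 0 counts in all libraries, and the UGT1A genes share exons, where reads can be counted for none of them. Of 10 tested organic ion carriers, 4 rose and 1 fell at 75 µg/ml and 5 rose and 2 fell at 150 µg/ml, with SLC22A4, a carnitine and ergothioneine transporter gene, at 1.59 (SE 0.115) and SLC47A1, an extruder of organic cations, at 0.81 (SE 0.124) at the higher dose. Xenobiotic receptors and partners rose in 4 of 7 cases with 0 lower at 75 µg/ml, and rose in 3 and fell in 2 at 150 µg/ml. With so few genes tested, the counts of carriers and receptors at 150 µg/ml are not read as apart from the background.

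For the lipid and organelle members, lists of their pathways were counted in the same way, beside the same shares of all tested genes (19.2% and 19.4%, then 25.8% and 25.7%). These lists too were chosen with earlier results of these data known. Of 14 tested LXR and sterol genes, 6 rose and 6 fell at 75 µg/ml and 5 rose and 5 fell at 150 µg/ml. NPC1, a lysosomal cholesterol exporter gene, and NR1H2, which encodes LXR beta, were at 0.76 (SE 0.0457) and 0.56 (SE 0.0641) at 150 µg/ml. All 24 peroxisome genes were tested, and 11 rose and 3 fell at 150 µg/ml (9 and 1 at 75 µg/ml), with PHYH, phytanoyl-CoA hydroxylase, at 0.97 (SE 0.0929). Of 22 tested genes of haem and iron-sulfur synthesis, 5 rose and 2 fell at 75 µg/ml and 7 rose and 6 fell at 150 µg/ml, near the background. ALAS1, the first enzyme of haem synthesis, rose by 0.78 on the log2 scale (SE 0.0493) at 150 µg/ml, where ABCB10 fell. Of 15 genes in a list set beside ABCE1, 1 rose and 7 fell at 75 µg/ml and 3 rose and 10 fell at 150 µg/ml. Those that fell included the termination factor gene GSPT1 (-0.61, SE 0.0528, at 150 µg/ml). The list mixes genes of ribosome recycling and termination with genes of the initiation factor eIF2 and of a stress kinase that acts on it. Its counts are therefore not read as those of the pathway of ABCE1. Of 10 cobalamin genes, 2 rose and 3 fell at 75 µg/ml and 3 rose and 4 fell at 150 µg/ml, too few to be read as apart from it. The cobalamin uptake receptor gene CD320 was at -0.59 (SE 0.0953) at 150 µg/ml, where the exporter gene ABCD4 rose. LMBRD1, another gene of this list, rose there with ABCD4 (0.57, SE 0.103).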

How the data were processed

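RNA was profiled in 6 libraries, 2 each of DMSO, 75 and 150 µg/ml AF-EAE. The authors deposited raw, unnormalized read counts for each gene, made with HISAT2 2.2.1 and HTSeq 2.0.2 on hg38 per the submitters' processing notes. Counting options, strand setting and annotation release were not stated. Reads shared by overlapping genes (10.95% to 11.48% of counted reads) and outside genes (6.32% to 7.98%) were left out. The labels call the 2 libraries of each group biological replicates. They do not say whether these were separate cultures, so the p-values reflect only how much these libraries varied.

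All genes were fitted together with edgeR 4.0.16 in R 4.3.3 (TMM, default filter by group, quasi-likelihood F-test, a mean per group, Benjamini-Hochberg adjustment at 0.05), which tested 15589 genes and left 3 residual degrees of freedom. SE came from the F statistic. Lengths are merged exons of GENCODE 29, and coordinates are from it. The scripts for edgeR, DESeq2 and limma-voom were tested on simulated data. Some results on single members are not reported here. The members, roles and lists were chosen with earlier results of these data known. Each library's value is given for members with a mean of 5 CPM or more over the 6 libraries, for others with a call and a log2 fold change of 1 or more in size at a dose, and for ABCC2 and ABCC3, and of each list the 2 members with the smallest p at 150 µg/ml were taken, though not every one of these is printed. Other values by library, and remarks on further members, were chosen after their values were seen. Alternatives were other scalings, filters, tools (DESeq2 1.42.0, limma-voom with limma 3.58.1) and thresholds, fits of 2 groups alone, a block by replicate number, and each library left out.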

Additional observations from a re-analysis of the deposited data

How the results depend on the processing

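Requiring a log2 fold change of 1 or more left 4 members higher and 0 lower at 75 µg/ml, 7 and 2 at 150 µg/ml, and 0 and 0 between doses. At an adjusted p of 0.01, 2 rose between doses. With each library left out, 8 to 12 rose and 4 to 6 fell at 75 µg/ml, 11 to 14 rose and 6 fell at 150 µg/ml, and 0 to 4 rose and 1 to 4 fell between doses. The other scalings, filters and tools kept these counts within 1.5 times, and so did leaving out ABCC1, ABCF1 and ABCF2, which was chosen after seeing the data. Total counts moved the median of all genes to 0.141 and 0.217 at the 2 doses, from 0.015 and 0.029. With the replicate number as a block, 13 rose and 6 fell at 75 µg/ml, 14 rose and 6 fell at 150 µg/ml and 4 rose and 4 fell between doses. Same-numbered libraries deviated together only weakly (r of 0.00373 to 0.059 across genes). Such an r, taken over all tested genes with the scarce ones among them, cannot exclude a shared culture or preparation. The labels do not say whether these libraries share more than a number.

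Among 915 values of 22 named members under alternatives, 828 kept direction and call, 54 lost the call, 7 gained it and 26 changed sign, 0 of these with a call. Signs changed under total counts for ABCB9 (0.10) and ABCF2 (0.16) at 150 µg/ml and for ABCC5 (0.022) and ABCB8 (0.052) between doses. They changed under the 5 CPM filter for ABCF2 (0.008) at 150 µg/ml and ABCB8 (0.008) between doses. The causes were not tested. With libraries left out, ABCA2 ran from -0.14 to 0.15 and ABCB9 from -0.056 to 0.14 at 75 µg/ml. At 150 µg/ml ABCA1 ran from -0.26 to 0.40, ABCB9 from -0.18 to 0.012 and ABCF2 from -0.12 to 0.063. Between doses ABCC1 ran from -0.25 to 0.017, ABCC11 from -0.055 to 0.32, ABCC3 from -0.22 to 0.28, ABCC5 from -0.10 to 0.027, ABCA10 from -0.32 to 0.71, ABCB8 from -0.061 to 0.05 and ABCD4 from -0.01 to 0.084. Depth limits ABCC11 and ABCA10, which had at most 20 and 21 counts in a library.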

Other observations

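Outside the 45 members, the peptide transporter genes TAP1 and TAP2 had 0 to 2 counts in each library and CFTR, the chloride channel of the ABCC group, had 0 to 3. Like ABCF1, TAP1 and TAP2 lie in the MHC region of chromosome 6. Of 19 further rows with an ABC symbol, which are pseudogenes, antisense transcripts or a read-through gene, 3 were tested. ABCA11P had 20 and 36 counts with DMSO, 28 and 31 at the lower dose and 31 and 33 at the higher, with log2 fold changes of -0.01 and 0.07. ABCC6P1, a near copy of the ABCC6 gene, had 6 and 3 counts with DMSO, 8 and 15 at the lower dose and 8 and 12 at the higher. ABCA15P had 21 and 22 counts with DMSO, 9 and 14 at the lower dose and 19 and 15 at the higher. None of the 3 passed the edgeR test in either comparison with DMSO, where the smallest adjusted p was 0.0958.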
